A study of Citrus maxima and Citrus sinensis with 4 samples.

Results

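The mature miRNA reads of control sweet orange leaves were set against those of control pummelo leaves, locus by locus, to show how the leaf miRNA profiles of these species differed without boron (B) excess. The members were all 699 precursor loci of the deposited table, and the comparison used 2 of the 4 libraries of the series. The first of these came from leaves of *C. sinensis* 'Xuegan', a sweet orange, and the second from those of *C. grandis*, sour pummelo; both were made from mature leaves of potted seedlings given nutrient solution with 10 μM boric acid for 15 weeks. The other 2 libraries, the B-toxic leaves of *C. sinensis* and of *C. grandis*, came from seedlings given 400 μM boric acid for the same time. RNA of 5 replicates was mixed before each library, so that each species had 1 control library, and tests on the reads of these libraries compare the libraries and not the species. Summed over loci, the table held 346600 mature reads in control *C. sinensis* and 373890 in control *C. grandis*. The sums were 243277 in B-toxic *C. sinensis* and 325441 in B-toxic *C. grandis*. A sequence listed at several loci enters these sums at each of them. With each distinct sequence taken once, at its highest count, the control totals were 305197 in *C. sinensis* and 290550 in *C. grandis*. The sums over loci were used as the totals of mature reads below. At these sums a count of 0 allowed up to 3 reads, which were 8.66 RPM (mature reads scaled to a common library total) in control *C. sinensis* and 8.02 RPM in control *C. grandis*. PCR copies of a molecule were not told apart, so intervals and limits cover counting error alone. The table lists miRNA loci and no messenger RNA, so the labelled tissue could not be checked against leaf marker genes.

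In plants, miRNAs are cut by Dicer-like enzymes from the stem of a folded precursor and guide Argonaute proteins to transcripts that pair with them, which are then cleaved or translated less. The 21 nt products of DCL1 usually load AGO1, while 24 nt small RNAs, mostly products of DCL3, direct DNA methylation through AGO4. Sweet orange descends from crosses of pummelo and mandarin, and the *C. clementina* genome on which the loci were predicted is that of a mandarin and sweet orange hybrid, so that sequences of pummelo that clementine lacks had no locus to be counted at.

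Sequences chosen from those with large differences, and miR395a and miR397 of the nutrient families described further on, are shown first, as deposited, 5′ to 3′, with the seed (bases 2 to 8) in capitals. Names beginning with ci-miRN are those the study gave to its candidates, "label" marks a sequence whose name is the deposited homology label, and the rest are called by their locus. These were higher in *C. sinensis*:
ci-miRN23: uCGAAUGGauaaugaacgugu
ci-miRN17: gUACUGUAgcugugagggggacgu
scaffold_3_479557: gUACUGUAgccgugagggggacgc
scaffold_7_1151387: gUACUUUAgccgugagggggacgu
miR6232a-3p label: uGGAUGUAacuguggcacggu
miR827: uUAGAUGAccaucaacaaaca
miR2111l label: uUCCUUGGauugucuugcauc
scaffold_6_1087335: aCAUCUUUuuaaguagaacuuauu
These were lower in *C. sinensis*:
scaffold_10_1542597 and 9 other loci: aCGGCUGGaugcaacuguggcacg
scaffold_2_309694 and 4 other loci: uGGAUGCAacuguggcacgguacc
scaffold_8_1287840 and scaffold_5_857725: uUGUGGGUuguguauguuaca
miR7748b-3p label: uUGGUCAAaacaucugcuagg
miR166b-5p label: cGACUGUUguaauuuguaaca
scaffold_2_310050: aUCCCCCUcccagcuacaguaccc
scaffold_15_1544201 and 4 other loci: gCUGGACGaacuuggcgccc
ci-miRN3, 4 loci: aACGGGGGauucuuuugguuggg
miR395a: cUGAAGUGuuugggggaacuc
miR397: uUAUUGAGugcagcguugau
Among these, ci-miRN17 and scaffold_3_479557 shared a seed, and no other pair did.

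Of 659 loci with a read in the control libraries, 44 were higher and 119 lower in *C. sinensis*, at a false discovery rate (FDR, Benjamini-Hochberg) below 0.01 by the two-sided Fisher's exact test and a ratio of at least 2. These were 6.68% and 18.1% of the loci tested, and they stood for 31 and 86 distinct mature sequences, because the same sequence can be listed at several loci. The split between directions depended on the scaling. The 428 loci with at least 10 control reads had a median log2 ratio of −0.62 when reads were scaled to the total of mature reads, and the calls were 44 higher and 119 lower. With TMM factors, which assume that most loci do not change, the median was −0.16 and the calls were 62 higher and 76 lower, and with DESeq2's size factors the median was −0.01 and the calls were 77 higher and 65 lower. One sequence moved with this shift. The locus with the most reads, scaffold_2_271215, a non-conserved 21 nt sequence, held 109708 reads in control *C. sinensis* and 60797 in control *C. grandis*, which were 31.7% and 16.3% of the mature reads summed over loci. Without its reads in the totals the calls were 52 higher and 94 lower. A direction is therefore given below as one that held under all 4 scalings (total of mature reads, clean reads of the library, TMM and DESeq2) where it did so. Under all of them 42 loci were called higher (6.37% of those tested) and 65 lower (9.86%) in *C. sinensis*. Relative to the total of mature reads, the other scalings shift every control log2 ratio by −0.08 (clean reads), 0.46 (TMM) or 0.62 (DESeq2). This rule is therefore stricter for lower calls than for higher ones. Log2 ratios below are of RPM, *C. sinensis* over *C. grandis*, with exact 95% intervals, and a value of −0.62 is that of the median locus.

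**Figure D1:**
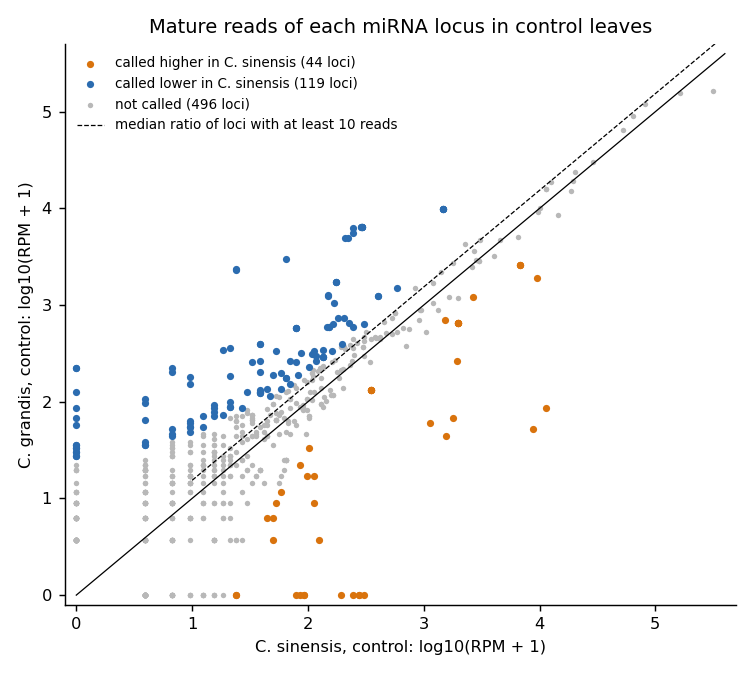
Each point is 1 of the 659 loci with a read in control leaves; the x axis is log10(RPM + 1) in *C. sinensis* and the y axis is log10(RPM + 1) in *C. grandis*, with 44 loci called higher (orange), 119 called lower (blue) and 496 not called (grey). The solid line marks equal RPM and the dashed line the median ratio of the 428 loci with at least 10 reads; the blue points above the lines outnumber the orange points below.

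The B-toxic pair shared no library with the control pair and gave a second measurement of the species difference under another B supply. Of its 645 loci with a read, 61 (9.46%) were higher and 97 (15%) lower in *C. sinensis*. Of the 44 loci higher in control *C. sinensis*, 38 were also called higher in the B-toxic pair and 6 were not called. Of the 119 lower in control *C. sinensis*, 69 were also called lower and 50 were not called. No locus was called in opposite directions. By an exact conditional test of equal species ratios, the ratios of the B levels differed at 73 of 605 loci (12.1%, FDR below 0.01), among them 11 of the 44 and 12 of the 119. edgeR's quasi-likelihood test was run over all 4 libraries with B treatment as a covariate. Its 1 residual degree of freedom is the change of the species ratio between B levels, which stands in for a spread of replicates. By this test 55 of 349 loci were higher (15.8%) and 55 lower (15.8%) in *C. sinensis* at an FDR below 0.05. This even split rested on the TMM factors, since without them 45 were higher and 84 lower. edgeR's filter kept 42 of the 44 higher loci and 105 of the 119 lower loci, and with TMM the test called 40 and 55 of these in the same direction. The fit holds the control libraries that gave these calls, so it is not a separate check of them. With a biological coefficient of variation of 0.4 assumed between libraries of 1 species, edgeR's exact test kept 15 of the 44 and 30 of the 119.

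**Figure D2:**
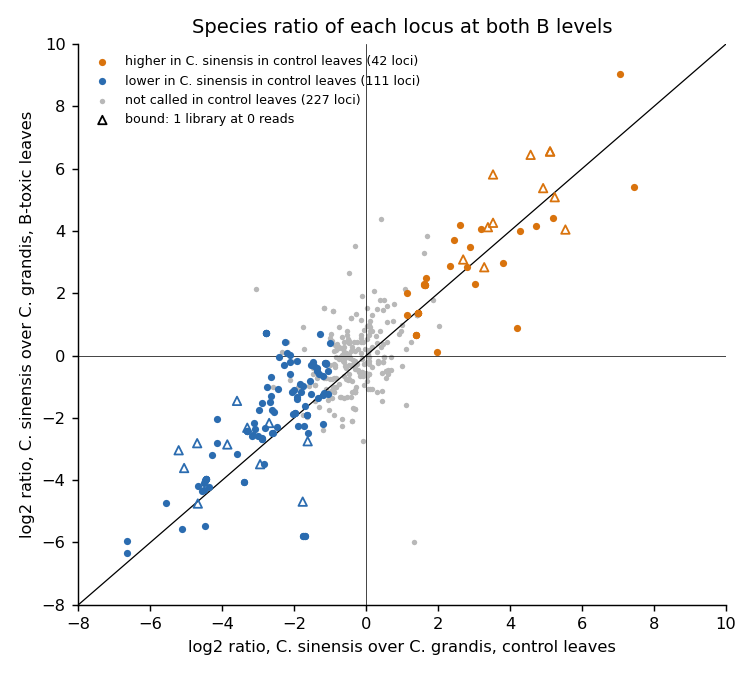
The log2 ratio of *C. sinensis* over *C. grandis* in control leaves (x axis) and in B-toxic leaves (y axis) for 380 loci with at least 10 reads at each B level, coloured by the call in control leaves; open triangles mark 22 loci with a bound because 1 library had 0 reads. All 42 orange points lie above 0 on the y axis, while some of the 111 blue points lie near or above 0.

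The largest ratios in favour of *C. sinensis* belonged to a pair of non-conserved sequences. ci-miRN23, a 21 nt candidate of unknown function here, had 3057 control and 253 B-toxic reads in *C. sinensis*, against 19 control and 8 B-toxic reads in *C. grandis*. Both *C. sinensis* libraries were above both *C. grandis* libraries, although its level in *C. sinensis* differed widely between the B levels. The control ratio was 174-fold (log2 7.44, 6.79 to 8.17). ci-miRN17, a 24 nt candidate, had 3953 and 5944 reads in control and B-toxic *C. sinensis*, against 32 and 15 in control and B-toxic *C. grandis*. Its control ratio was 133-fold (log2 7.06, 6.56 to 7.61). Both calls held under all 4 scalings and with the coefficient of variation of 0.4, and in edgeR over all 4 libraries both were higher (FDR 0.00071 and 0.00052).

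ci-miRN17 had a pair of close relatives that were also higher in *C. sinensis*. With positions counted from the 5′ end of scaffold_3_479557, ci-miRN17 differed from it by C11U and C24U, and scaffold_7_1151387, which carries the homology label ghr-miR7495a, differed by G6U and C24U. scaffold_3_479557 had 3281 control and 2924 B-toxic reads in *C. sinensis*, against 711 control and 539 B-toxic reads in *C. grandis*. The ratio was 4.98-fold in control leaves (log2 2.32, 2.20 to 2.43). scaffold_7_1151387 had 395 and 301 reads in control and B-toxic *C. sinensis*, against 22 and 25 in control and B-toxic *C. grandis*, a ratio of 19.4-fold in control leaves (log2 4.28, 3.66 to 4.97). A sequence close to the reverse complement of the same stretch went the other way. scaffold_2_310050 matched the reverse complement of scaffold_3_479557 over 22 bases with 3 substitutions; it had 0 reads in both *C. sinensis* libraries, against 83 control and 108 B-toxic reads in *C. grandis*. Against the 3 reads that a count of 0 allows, it was at least 25.6-fold lower in control *C. sinensis*. The 4 sequences were compared because of their similarity, after their values had been seen.

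**Figure D3:**
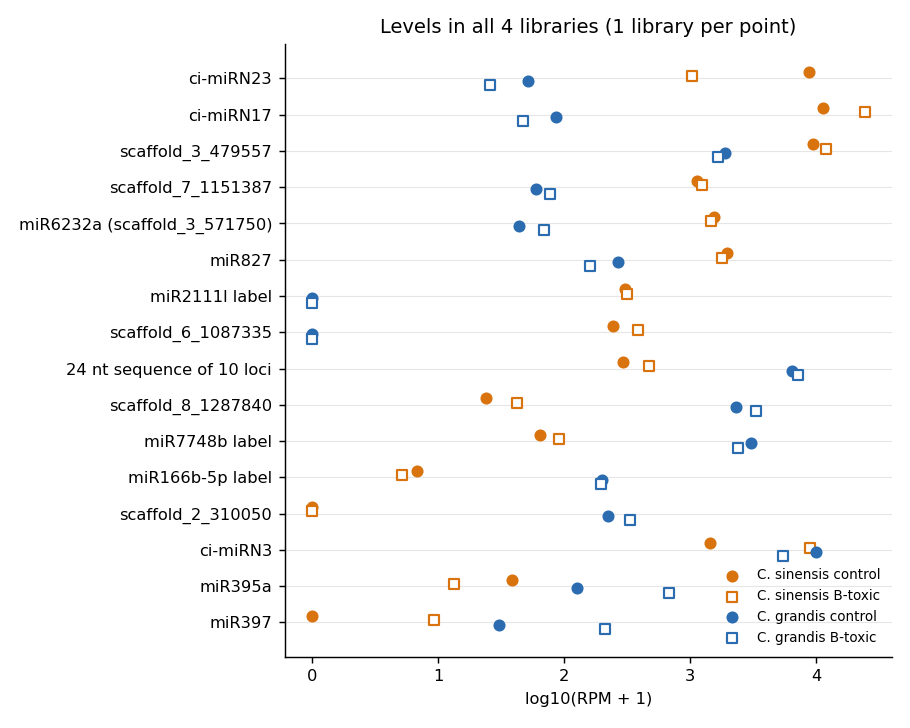
Levels of 16 sequences in the 4 libraries on an axis of log10(RPM + 1), with *C. sinensis* in orange and *C. grandis* in blue, control leaves as filled circles and B-toxic leaves as open squares; 1 library is behind each point and 0 on the axis means no reads. In the upper 8 rows both orange points lie right of both blue points, in the next 5 rows they lie left of them, and in the row of ci-miRN3 the orange and blue points overlap.

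Apart from these relatives, the calls with the most reads among those higher in *C. sinensis* were of 21 nt. miR827, whose targets in Arabidopsis and rice are genes of SPX-domain proteins of phosphate homeostasis, had 677 control and 433 B-toxic reads in *C. sinensis*, against 99 control and 52 B-toxic reads in *C. grandis*. The control ratio was 7.38-fold (log2 2.88, 2.58 to 3.20) and held under all 4 scalings, and edgeR gave an FDR of 0.00071. With the coefficient of variation of 0.4 it was not called. The sequence of scaffold_2_228593, listed at 3 loci with nearly equal counts, had 2335 and 1114 reads in control and B-toxic *C. sinensis*, against 971 and 946 in control and B-toxic *C. grandis* (log2 1.38, 1.27 to 1.49, in control leaves), and was not called in the B-toxic pair. The sequence labelled ppt-miR1028a-5p, listed at 5 loci, had 687 and 572 reads in control and B-toxic *C. sinensis*, against 241 and 160 in control and B-toxic *C. grandis* (log2 1.62, 1.41 to 1.84). The sequence labelled ath-miR5014b had 918 and 598 reads in control and B-toxic *C. sinensis*, against 455 and 326 in control and B-toxic *C. grandis*, at scaffold_3_488194 (log2 1.12), but was not called at its second locus (log2 0.75).

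Sequences missing from control *C. grandis* were of moderate abundance in *C. sinensis*. The sequence labelled mtr-miR2111l had 105 control and 76 B-toxic reads in *C. sinensis* and 0 in both *C. grandis* libraries, and was at least 37.8-fold higher in control *C. sinensis*, against 3 reads. Plant miR2111 is known from the phosphate and nodulation responses of Arabidopsis and legumes. scaffold_6_1087335, a 24 nt non-conserved sequence, had 84 and 93 reads in control and B-toxic *C. sinensis* and 0 in both *C. grandis* libraries, and was at least 30.2-fold higher in control leaves. scaffold_3_489924, listed with the same counts at a second locus, had 96 and 70 reads in control and B-toxic *C. sinensis*, against 0 and 1 in control and B-toxic *C. grandis*. scaffold_6_995538 had 66 and 65 reads in control and B-toxic *C. sinensis*, against 0 and 1 in control and B-toxic *C. grandis*. Of the 428 loci with at least 10 control reads, 4 had reads in *C. sinensis* and 0 in both *C. grandis* libraries, and 7 had reads in *C. grandis* and 0 in both *C. sinensis* libraries. With a limit of at least 1 control read these counts were 47 and 44 of 659 loci. The highest control counts of such loci were the 105 reads of the miR2111l label in *C. sinensis* and the 83 reads of scaffold_2_310050 in *C. grandis*. Whether such a sequence is absent from a genome or not expressed in its leaves was not tested.

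Lower in *C. sinensis*, the sequence with the largest ratio was that of scaffold_8_1287840 and scaffold_5_857725, of 21 nt and non-conserved. At the first locus it had 8 control and 10 B-toxic reads in *C. sinensis*, against 873 control and 1089 B-toxic reads in *C. grandis*. It was 101-fold lower in control *C. sinensis* (log2 −6.66, −7.88 to −5.68). ci-miRN30a, which differs from it by G5U, G7A and U8G (positions from the 5′ end of the first), was not called in control leaves, with 103 reads in *C. sinensis* and 138 in *C. grandis* (log2 −0.31, −0.70 to 0.07), but was called lower in the B-toxic pair, with 56 reads in *C. sinensis* and 244 in *C. grandis* (log2 −1.70). The sequence labelled bdi-miR7748b-3p had 22 reads in both *C. sinensis* libraries, against 1132 control and 785 B-toxic reads in *C. grandis*, and was 47.7-fold lower in control *C. sinensis* (log2 −5.58, −6.26 to −4.97). The sequence labelled aly-miR166b-5p had 2 and 1 reads in control and B-toxic *C. sinensis*, against 75 and 64 in control and B-toxic *C. grandis* (log2 −5.12, −8.19 to −3.22). All 3 called sequences here were lower under all 4 scalings, with the coefficient of variation of 0.4 and in edgeR (FDR 0.00052, 0.00061 and 0.0025). scaffold_3_511377 had 0 and 5 reads in control and B-toxic *C. sinensis*, against 84 and 47 in control and B-toxic *C. grandis*. The sequence labelled bdi-miR7711-5p.4 had 3 and 11 reads in control and B-toxic *C. sinensis*, against 57 and 60 in control and B-toxic *C. grandis* (log2 −4.14, −6.46 to −2.52). scaffold_9_1538351, 1 of 2 loci of its sequence, had 6 and 4 reads in control and B-toxic *C. sinensis*, against 127 and 49 in control and B-toxic *C. grandis* (log2 −4.29, −5.77 to −3.13). These too were lower under all 4 scalings.

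A pair of pummelo-rich candidates did not repeat in the B-toxic pair. ci-miRN3, listed at 4 loci of scaffold_1366 with equal counts, had 503 reads in control *C. sinensis* and 3708 in control *C. grandis* (log2 −2.77, −2.91 to −2.64), but 2167 in B-toxic *C. sinensis* and 1772 in B-toxic *C. grandis*. The groups of libraries overlapped, and edgeR over all 4 gave an FDR of 0.65. ci-miRN5 at scaffold_5_758660 had 2 reads in control *C. sinensis* and 84 in control *C. grandis*, but 1 in B-toxic *C. sinensis* and 0 in B-toxic *C. grandis*. In control leaves both calls held under all 4 scalings.

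The sequence labelled sbi-miR6232a-3p and its relatives made up the largest group of similar sequences and differed between the species in both directions. This label was on 3 loci of the same sequence, all called higher in *C. sinensis*, but their *C. grandis* counts were unequal. At scaffold_3_571750 it had 541 control and 354 B-toxic reads in *C. sinensis*, against 16 control and 22 B-toxic reads in *C. grandis* (log2 5.19, 4.48 to 6.01). At scaffold_5_893398 it had 614 and 442 reads in control and B-toxic *C. sinensis*, against 25 and 33 in control and B-toxic *C. grandis* (log2 4.73, 4.15 to 5.37). At scaffold_9_1471032 it had 533 and 332 reads in control and B-toxic *C. sinensis*, against 264 and 110 in control and B-toxic *C. grandis* (log2 1.12, 0.91 to 1.34). The sources used here do not give how reads were shared among loci with the same sequence, so the ratio of the sequence as a whole is uncertain.

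Several relatives of this sequence that differ by U7C (positions from the 5′ end of the miR6232a sequence) were lower in *C. sinensis*. The 24 nt sequence of scaffold_10_1542597 overlaps it by 19 bases with this 1 substitution and was lower at all 10 of its loci, with 72 to 102 reads in control *C. sinensis* and 1847 to 2419 in control *C. grandis*, and with 72 to 114 in B-toxic *C. sinensis* and 1967 to 2352 in B-toxic *C. grandis*. Its log2 ratios in control leaves were −4.67 to −4.46. The 24 nt sequence of scaffold_2_309694 holds all 21 bases with the same substitution and was lower at all 5 of its loci, with 51 to 60 reads in control *C. sinensis* and 466 to 645 in control *C. grandis* (log2 −3.32 to −3.08). The 21 nt sequence of scaffold_3_555940, labelled osa-miR319a-3p although it overlaps these sequences, had 30 reads in control *C. sinensis* and 120 in control *C. grandis* (log2 −1.89, −2.52 to −1.30). ci-miRN16, with U7C and C16U, had 105 reads in control *C. sinensis* and 236 in control *C. grandis* (log2 −1.06, −1.40 to −0.72), a call that TMM and DESeq2 scaling did not keep. The base at this position did not go with the direction in every relative. Of sequences picked after their values were seen, scaffold_5_837744 (G2A and U7C) was lower, with 63 reads in control *C. sinensis* and 272 in control *C. grandis*, but scaffold_9_1467612 (U7C, G14A and C16U) was not called, with 45 reads in control *C. sinensis* and 52 in control *C. grandis*. Further members of the group share fewer than 16 bases with the miR6232a sequence. Among them scaffold_5_770543, with C at this base, was higher, with 39 reads in control *C. sinensis* and 3 in control *C. grandis*. scaffold_3_466333, with U at this base, was lower, with 7 reads in control *C. sinensis* and 37 in control *C. grandis*. The rest of these further members were not called. ci-miRN19, which matches the reverse complement of the miR6232a sequence over 21 bases with 2 substitutions, was not called, with 69 reads in control *C. sinensis* and 51 in control *C. grandis* (log2 0.55, 0.00 to 1.10).

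Loci on small scaffolds were mostly lower in *C. sinensis*. Of 21 tested loci on scaffolds numbered above 9, 13 were lower and 0 higher, against 18.1% lower over all loci, but the 13 held 6 distinct sequences. Besides ci-miRN3 and the 24 nt sequence of 10 loci, these were mainly fragments of 1 stretch. The 20 nt sequence of scaffold_15_1544201 was listed at 5 loci, with 13 to 27 reads in control *C. sinensis* and 147 to 217 in control *C. grandis* (log2 −3.40 to −2.89). scaffold_23_1546101, which lacks its last base, had 3 reads in control *C. sinensis* and 67 in control *C. grandis* (log2 −4.37), and scaffold_749_1555665, which overlaps it by 16 bases, had 18 and 124 reads (log2 −2.67) in the same libraries. All 3 sequences were lower under all 4 scalings.

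Shifted ends of 1 stretch did not always share a ratio. The 25 nt sequence labelled smo-miR1098 had 138 reads in control *C. sinensis* and 464 in control *C. grandis* (log2 −1.64, −1.92 to −1.36). scaffold_4_722674, the 22 nt sequence that it contains whole, had 61 reads in control *C. sinensis* and 75 in control *C. grandis* (log2 −0.19, −0.70 to 0.32), and these intervals do not overlap. The pair of scaffold_5_915286 and scaffold_5_904088, which share 20 bases, had log2 ratios of −1.57 (−2.13 to −1.04) and −0.91 (−1.36 to −0.48), whose intervals overlap.

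Most loci of the conserved families were not called. Families were listed by their known targets, or as conserved among plants. Loci were placed in them by the number in their deposited homology label alone, so a labelled sequence need not share the targets of its family. Of 111 tested loci in the listed families, 10 were higher and 10 lower in *C. sinensis*, which is 9.01% each way beside 6.68% higher and 18.1% lower over all loci. The calls stood for 6 distinct sequences higher and 7 lower, since miR530 was listed at 5 loci and miR395a at 4. Under all 4 scalings, a rule stricter for lower calls, 10 higher and 2 lower held, beside 6.37% higher and 9.86% lower over all loci. The median log2 ratio of the 87 with at least 10 reads was −0.08, against −0.62 over the 428 loci. DESeq2's factors add 0.62 to each log2 ratio of control leaves, so the sign of a ratio between −0.62 and 0 depends on the scaling. Of 92 named loci 17 turned their sign with these factors, and with a shift of this size none of the 17 could be a called locus. Among loci labelled as regulators of developmental transcription factors, 1 of 54 was higher and 3 were lower, beside 6.68% and 18.1% over all loci. The lower ones include the osa-miR319a-3p label, which sits on a relative of the miR6232a sequence, and the aly-miR166b-5p label. miR156a, which targets SPL genes of phase change, had 3337 reads in control *C. sinensis* and 3402 in control *C. grandis* (log2 0.08, 0.01 to 0.15). miR157a had 3466 reads in control *C. sinensis* and 3780 in control *C. grandis* (log2 −0.02, −0.08 to 0.05). The sequence labelled ath-miR165a, of a family that targets HD-ZIP III genes of leaf polarity, had 28453 reads in control *C. sinensis* and 45011 in control *C. grandis* at its most-read locus (log2 −0.55). miR396a, against growth-regulating factors, had 10013 reads in control *C. sinensis* and 11372 in control *C. grandis* (log2 −0.07, −0.11 to −0.04), and miR319a, against TCP genes, had 3975 and 5890 in the same libraries (log2 −0.46). miR858b, which targets MYB genes of phenylpropanoid synthesis, had 2279 reads in control *C. sinensis* and 1893 in control *C. grandis* (log2 0.38, 0.29 to 0.47).

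The other called members of this group were minor ones. The sequence labelled zma-miR396g-3p, whose bases match the reverse complement of miR396a over 19 bases, had 29 reads in control *C. sinensis* and 8 in control *C. grandis* (log2 1.97, 0.80 to 3.31), but 20 in B-toxic *C. sinensis* and 25 in B-toxic *C. grandis*. miR170 was lower at scaffold_5_990825 with 13 reads in control *C. sinensis* and 49 in control *C. grandis*, a call that DESeq2 scaling did not keep, and was not called at its other locus, with 37 reads in control *C. sinensis* and 63 in control *C. grandis*.

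Among auxin-related families, 1 of 11 tested loci was higher and 0 were lower, beside 6.68% and 18.1% over all loci. miR393a, which targets the auxin receptors TIR1 and AFB, had 35 control and 21 B-toxic reads in *C. sinensis*, against 12 control and 5 B-toxic reads in *C. grandis* (log2 1.65, 0.67 to 2.73, in control leaves), and its call held under all 4 scalings. miR167a, against the auxin response factors ARF6 and ARF8, had 18041 reads in control *C. sinensis* and 24182 in control *C. grandis* (log2 −0.31). miR160a, against ARF10, ARF16 and ARF17, had 567 reads in control *C. sinensis* and 450 in control *C. grandis* at scaffold_6_1021446 (log2 0.44, 0.26 to 0.62), under the limit of 2, but was called higher with DESeq2's factors (log2 1.06). miR394a, against the F-box gene LCR, had 788 reads in control *C. sinensis* and 1595 in control *C. grandis* (log2 −0.91, −1.03 to −0.78), also under the limit. In the silencing pathway 0 of 8 tested loci were called by the Fisher's exact test with its limits, beside 6.68% higher and 18.1% lower over all loci. An unadjusted p below 0.05 in this test was found at 5 of the 8, beside 283 of 659 over all loci. The 8 include 4 loci of the same sequence, labelled aly-miR173a-3p. miR403, which targets AGO2, had 4331 reads in control *C. sinensis* and 7039 in control *C. grandis* (log2 −0.59).

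Nutrient families held several of the calls. In the sulfate and phosphate group 2 of 14 loci were higher, namely miR827 and the miR2111l label, and 5 were lower, all of the miR395 family, whose targets are ATP sulfurylases and a sulfate transporter, beside 6.68% higher and 18.1% lower over all loci. The 5 loci held 2 distinct sequences, that of miR395a (21 nt) and a 24 nt sequence placed here by its label tae-miR395b, and none was lower under all 4 scalings. miR395a, at 4 loci with nearly equal counts, had 13 control and 3 B-toxic reads in *C. sinensis*, against 47 control and 223 B-toxic reads in *C. grandis* at scaffold_3_446075. Its control log2 ratio was −1.74 (−2.76 to −0.84), but it was not called with TMM or DESeq2 scaling. The canonical miR2111a, unlike the miR2111l label, was not called, with 34 reads in control *C. sinensis* and 30 in control *C. grandis* (log2 0.29, −0.46 to 1.05). Copper families were rare in control leaves, with 2 of 8 loci lower and 0 higher, beside 18.1% lower and 6.68% higher over all loci. miR397, which targets laccases, had 0 control and 2 B-toxic reads in *C. sinensis*, against 11 control and 69 B-toxic reads in *C. grandis*, and was at least 3.40-fold lower in control *C. sinensis*, against 3 reads. miR408b, against plantacyanin and laccases, had 0 and 1 reads in control and B-toxic *C. sinensis*, against 13 and 8 in control and B-toxic *C. grandis*. Neither copper call held with DESeq2 scaling, and edgeR's filter removed both.

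**Figure D4:**
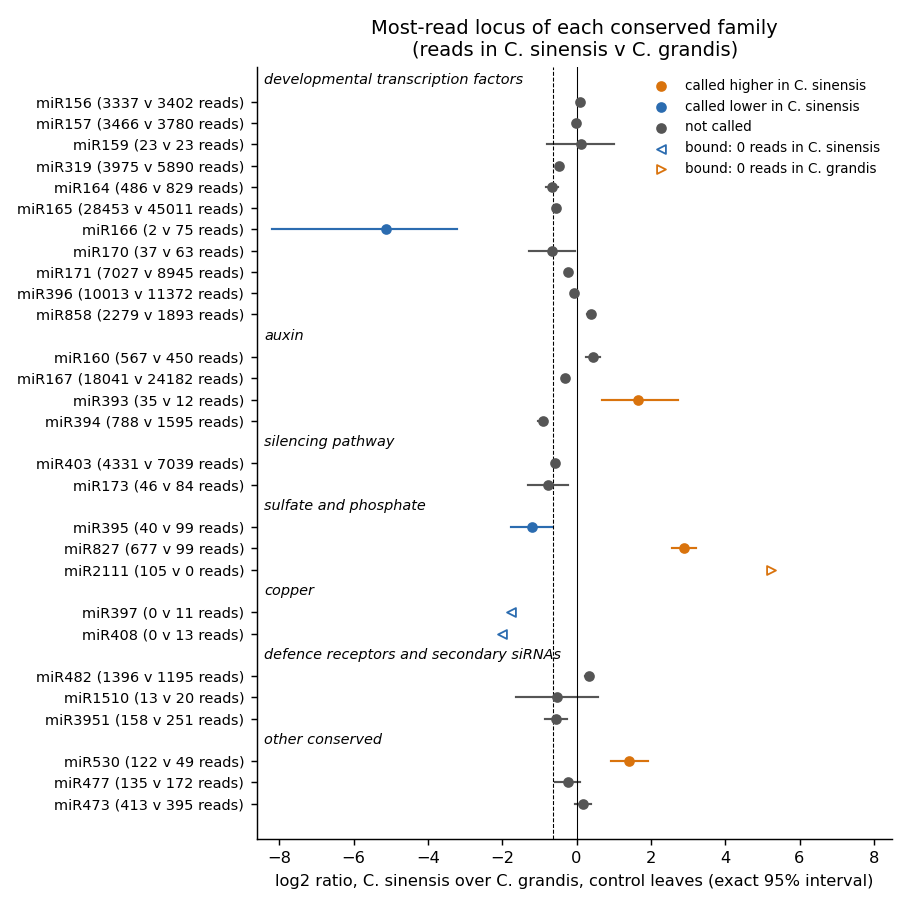
The log2 ratio of *C. sinensis* over *C. grandis* in control leaves with its exact 95% interval, for the locus with the most reads of each listed family with at least 10 control reads; the solid line marks equal RPM and the dashed line the median locus (−0.62), open triangles are bounds against 3 reads. Most families lie between the lines or close to them, with miR827, the miR2111l label, miR393 and miR530 to the right and the miR166b-5p label, miR395, miR397 and miR408 to the left.

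Among loci labelled as regulators of resistance genes 1 of 6 was higher, beside 6.68% over all loci. That locus, labelled gma-miR482a-5p and of 24 nt, had 32 control and 42 B-toxic reads in *C. sinensis*, against 0 control and 1 B-toxic reads in *C. grandis*. miR482c, of 22 nt and of a family that targets NBS-LRR resistance genes, was not called, with 1396 reads in control *C. sinensis* and 1195 in control *C. grandis* (log2 0.33, 0.22 to 0.45). miR530, a family known from several flowering plants, was listed at 5 loci with equal counts and was higher, with 122 control and 62 B-toxic reads in *C. sinensis*, against 49 control and 32 B-toxic reads in *C. grandis* (log2 1.43, 0.94 to 1.93).

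The direction of the calls differed between length classes. Of 172 tested 21 nt loci, 29 (16.9%) were higher and 25 (14.5%) lower in *C. sinensis*, with a median log2 ratio of −0.07 over those with at least 10 reads. Of 336 tested 24 nt loci, 15 (4.46%) were higher and 71 (21.1%) lower, with a median of −0.93. Over all 659 tested loci, 336 of them of 24 nt, 6.68% were higher and 18.1% lower, with a median of −0.62. By distinct sequences the calls were 16 higher and 20 lower at 21 nt, and 15 higher and 51 lower at 24 nt. Under all 4 scalings 29 loci of 21 nt were higher and 13 lower, and 13 of 24 nt were higher and 36 lower. Over all loci 42 were higher and 65 lower by this rule, which is stricter for lower calls. Within 24 nt the lower calls were mostly at non-conserved loci, with 51 of 171 lower (29.8%) and 6 higher, against 20 of 165 conserved loci lower (12.1%) and 9 higher. By distinct sequences these calls were 33 lower and 6 higher at non-conserved loci, against 18 lower and 9 higher at conserved loci. Loci of 1 sequence are not independent, so these shares are given with no test.

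**Figure D5:**
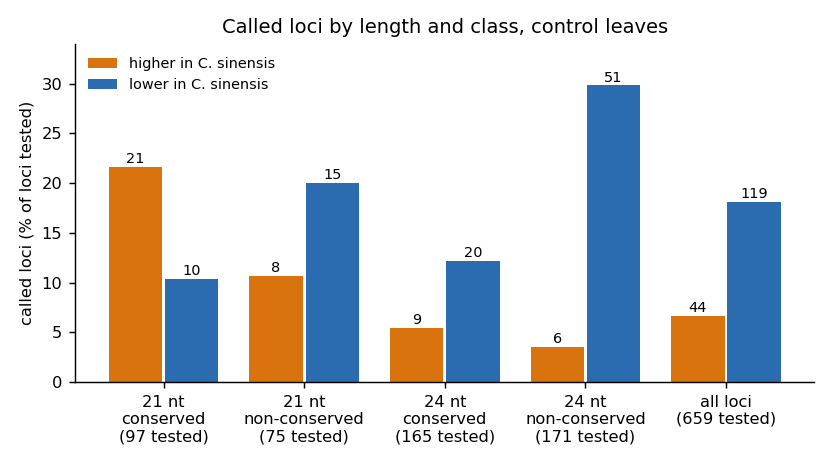
Bars give the percent of tested loci called higher (orange) and lower (blue) in *C. sinensis* in control leaves for 21 and 24 nt loci by class, and over all 659 loci, with the number of loci above each bar. The 24 nt non-conserved loci have the tallest blue bar (51 of 171), and the 21 nt conserved loci are the class with more orange than blue (21 against 10 of 97).

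Several miRNAs that the study assayed by qRT-PCR were not called between the control libraries. miR164a had 486 reads in control *C. sinensis* and 829 in control *C. grandis* (log2 −0.66, −0.83 to −0.50). The miR167a sequence at scaffold_9_1388622, which differs from the most-read one by G21U (position from the 5′ end of the most-read one), had 1050 reads in control *C. sinensis* and 1753 in control *C. grandis* (log2 −0.63). miR160a at scaffold_2_331813 had 119 reads in control *C. sinensis* and 95 in control *C. grandis* (log2 0.43, 0.03 to 0.84), and was called higher with DESeq2's factors (log2 1.05). ci-miRN8 had 27 reads in control *C. sinensis* and 36 in control *C. grandis* (log2 −0.31, −1.08 to 0.45). miR847 had 1 read in control *C. sinensis* and 9 in control *C. grandis* (log2 −3.06, −8.51 to −0.21) and missed the FDR limit (Fisher's exact test, FDR 0.057). For ci-miRN13, with 2 reads in each control library, a difference was not detectable at this depth.

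The call depended on the number of reads behind it. Of 231 loci with fewer than 10 control reads, 2 were called (0.866%), and of 256 with at least 10 but fewer than 100 reads, 30.9% were called, 19 higher and 60 lower in *C. sinensis*. Of 120 with at least 100 but fewer than 1000 reads, 50% were called, 16 higher and 44 lower, and of 52 with 1000 or more, 42.3% were called, 7 higher and 15 lower.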

How the data were processed

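Small RNA of mature leaves was sequenced in 4 libraries, 1 per species and B level, each from the mixed RNA of 5 replicates. After trimming and quality filters the authors discarded reads of other RNA classes, matched the rest to miRBase 21, used MTide to predict precursors on version 1.0 of the *C. clementina* genome, and deposited an unnormalized count of mature reads for each locus and library. Deposited counts pooled over libraries were not used. The sources used here do not give how reads with several loci were treated, or MTide's version. A mature sequence was listed with 0 mismatches at each of the 699 loci, which were not placed on a genome here.

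From these counts, the reads of a locus were set against all other mature reads by Fisher's exact test, two-sided (SciPy 1.17.1), with adjustment over loci with at least 1 read; a call required an FDR below 0.01 together with a 2-fold ratio. Where 1 library had 0 reads, the ratio was bounded with 3 reads. Species ratios of both B levels were compared by an exact conditional test, and the species difference over 4 libraries was tested with edgeR 4.0.16 (quasi-likelihood, B treatment as covariate, TMM, filter on low counts, FDR below 0.05). The tests were checked on simulated counts. Named loci were the 5 with the most reads, the 10 sequences in each direction with the largest ratio (at least 50 reads) or the most reads, the top and called loci of listed families, close sequence pairs, and the miRNAs that the study assayed; the many that this rule gives are described in part. The members, lists and tests were chosen with earlier results of these data known. Alternatives were other scalings (clean reads, TMM, DESeq2 size factors, totals without the most-read locus), other limits, each distinct sequence counted once, assumed coefficients of variation, a DESeq2 fit, and leaving out each library.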

Additional observations from a re-analysis of the deposited data

Results flagged for a closer look

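Of the named loci that were called in control leaves, 12 loci of 9 distinct sequences had species ratios that differed between the B levels by the exact conditional test of equal ratios (FDR below 0.01), which compares reads of 4 libraries without replicates. The difference given is the log2 ratio of *C. sinensis* over *C. grandis* in B-toxic leaves minus that in control leaves.

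ci-miRN3 at scaffold_1366_1560038 had the largest difference in favour of *C. sinensis*, 3.48, with 503 reads in control *C. sinensis* against 3708 in control *C. grandis*, and 2167 in B-toxic *C. sinensis* against 1772 in B-toxic *C. grandis*. miR395a at scaffold_3_446075 differed by −4.05, with 3 reads in *C. sinensis* and 223 in *C. grandis* among the B-toxic libraries, a larger ratio than in control leaves, and its 3 other loci differed by −4.09 to −4.05. ci-miRN17 at scaffold_3_618738 differed by 1.99 and its relative scaffold_3_479557 by 0.54, both higher in *C. sinensis* at both B levels. The ratios of scaffold_5_888052 (label ppt-miR1028a-5p) and scaffold_9_1471032 (label sbi-miR6232a-3p) differed by 0.64 and 0.89, also with more reads in *C. sinensis* at both B levels. scaffold_2_228593 differed by −0.72 and was not called in B-toxic leaves. scaffold_8_1369923 (label ath-miR405a), with 203 reads in control *C. sinensis* and 562 in control *C. grandis*, differed by 0.94, and scaffold_6_1045148 (label aly-miR3433-5p), with 58 reads in control *C. sinensis* and 391 in control *C. grandis*, by 1.35, both with a smaller ratio in B-toxic leaves.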

How the results depend on the processing

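The number of loci called in control leaves was 163 and lay between 138 and 209 under the 4 other library totals, the filter of at least 10 reads, the missing limit on the ratio and the counting of distinct sequences. It was 99 (25 higher and 74 lower in *C. sinensis*) with a ratio of at least 4, 98 (29 and 69) when the coefficient of variation was taken as 0.2, and 45 (15 and 30) at 0.4. The share of calls that were higher was 27.0% with the total of mature reads, 44.9% with TMM and 54.2% with DESeq2's size factors. The calls over both B levels numbered 110, 91 with DESeq2 and 89 to 128 with 1 library left out, 158 without a filter and 129 (45 higher and 84 lower) without TMM. Another library total shifts every control log2 ratio by the same amount, at most 0.62, while a call needs a 2-fold ratio (log2 of 1). It could therefore not turn the direction of a called locus. Among the uncalled named loci the log2 ratio changed sign at 17 with DESeq2's size factors, 10 with TMM and 1 with clean reads. Under DESeq2's size factors 11 named loci lost and 4 gained their call, among those gained scaffold_2_271215 (log2 1.58), and with the coefficient of variation of 0.4 31 lost it. The cause was not tested. Each species had 1 control library, so a difference between species and one between these libraries, their plants or their preparation cannot be told apart, and at fewer than 10 reads few differences could be called. No paired analysis was possible because each group had 1 library and the labels give no replicate numbers; the fit over 4 libraries set the species against each other within B levels.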
